A study of Mus musculus with 13 samples.

Results

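A set of 7 genes of mouse chromosome 7, out of the 43629 genes in the table, was followed across all 13 libraries: Trim12a, Trim12c, Trim30a, Trim30d, Trim34a, Gvin1 and Gm1966. They were picked by name and were selected on their measured values in these libraries, as interferon-related genes whose level may go with the mouse strain. Their levels and their differences between groups are therefore given as descriptions without a test. RNA was sequenced from T cell lymphomas of the thymus of 5 Atm-/- mice of strain 129S6/SvEv and of 5 Rag2c/c p53-/- mice on a mixed C57BL/6 and 129S6/SvEv background, and from the thymus of 3 wild type (WT) C57BL/6 mice. Atm-/- mice lack the kinase ATM, which signals DNA double strand breaks. Rag2c/c p53-/- mice express a RAG2 protein cut short at its C terminus, a part of the V(D)J recombinase, and lack p53. The labels give no age or sex, each lymphoma is from a separate mouse, and the WT libraries were re-used from an earlier series. Genotype, tumor or normal tissue, strain and series of origin therefore change together, and their parts in any difference below cannot be told apart.

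TRIM proteins combine a RING domain, which carries ubiquitin ligase activity, with a B-box and a coiled coil, and the members described here are rodent relatives of TRIM5, the antiviral factor that recognizes retroviral capsids. Gvin1 encodes a very large interferon-inducible GTPase, and Gm1966 is a Gvin-related copy. Interferon binding to its receptor activates the kinases JAK1 and TYK2. A transcription factor complex that holds IRF9 then binds the interferon-stimulated response element in the promoters of induced genes. Both families are known as multigene clusters whose copies arose by local duplication.

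On the GRCm38 coordinates of the table, the Trim members lay within 263 kb. Trim34a, on the plus strand, spanned chr7:104244457-104340693, and the other Trim members were on the minus strand: Trim12a at chr7:104299894-104315466, Trim12c at chr7:104338754-104353362, Trim30a at chr7:104409025-104465193 and Trim30d at chr7:104470014-104507849. The Gvin members followed after a gap of 1649 kb and lay within 447 kb, also on the minus strand. Gvin1 spanned chr7:106156556-106215326, and Gm1966, annotated in the table as an unprocessed pseudogene, spanned chr7:106596743-106604035. The span of Trim34a overlapped 8 other annotated genes, Trim5, Trim12a and Trim12c among them, and the strand setting used in counting is not given in the sources used here. Reads from overlapping exons of these genes could therefore be lost or assigned to either gene.

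Promoter windows are shown because these genes are known as interferon targets and because neighboring copies differed in level. RefSeq promoters of build GRCm38.p6, from 250 bases before to 50 bases after the annotated start, were found for 6 of the 7 genes. The letters searched were GAAANNGAAA and, for the other strand, TTTCNNTTTC, which is the core of the interferon-stimulated response element. At least 1 match was in the window of 6 of those 6 genes, against 3.44% of the 32851 promoters of the same length. Of 5 other Trim genes of the cluster with a window, only Trim5 held a match, and Trim6, Trim30b, Trim30c and Trim34b held none. The Trim members, printed with the match in capitals, are these.
Trim34a (chr7:104244207-104244506, plus strand): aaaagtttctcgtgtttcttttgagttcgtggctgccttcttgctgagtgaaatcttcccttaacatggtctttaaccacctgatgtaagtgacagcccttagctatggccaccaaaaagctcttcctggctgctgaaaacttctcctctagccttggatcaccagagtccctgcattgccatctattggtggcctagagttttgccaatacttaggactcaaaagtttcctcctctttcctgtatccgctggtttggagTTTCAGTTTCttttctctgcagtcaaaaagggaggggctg
Trim12a (chr7:104315446-104315745, minus strand): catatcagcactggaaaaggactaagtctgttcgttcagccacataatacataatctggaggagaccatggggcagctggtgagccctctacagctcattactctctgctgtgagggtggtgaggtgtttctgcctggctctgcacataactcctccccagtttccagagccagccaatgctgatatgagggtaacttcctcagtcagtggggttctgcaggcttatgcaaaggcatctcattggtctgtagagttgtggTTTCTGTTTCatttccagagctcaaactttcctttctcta
Trim12c (chr7:104353300-104353599, minus strand): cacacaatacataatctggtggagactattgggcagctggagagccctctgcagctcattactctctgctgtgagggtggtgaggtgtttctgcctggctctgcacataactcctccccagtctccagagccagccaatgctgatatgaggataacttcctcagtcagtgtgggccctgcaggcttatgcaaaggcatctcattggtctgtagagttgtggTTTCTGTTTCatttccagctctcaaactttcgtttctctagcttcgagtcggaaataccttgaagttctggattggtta
Trim30a (chr7:104465144-104465443, minus strand): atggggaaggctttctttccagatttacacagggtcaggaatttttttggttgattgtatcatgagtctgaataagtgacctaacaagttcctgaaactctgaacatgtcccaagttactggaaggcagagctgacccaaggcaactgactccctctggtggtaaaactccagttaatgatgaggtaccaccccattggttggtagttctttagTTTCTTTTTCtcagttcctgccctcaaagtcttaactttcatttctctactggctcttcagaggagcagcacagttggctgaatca
Trim30d (chr7:104507800-104508099, minus strand): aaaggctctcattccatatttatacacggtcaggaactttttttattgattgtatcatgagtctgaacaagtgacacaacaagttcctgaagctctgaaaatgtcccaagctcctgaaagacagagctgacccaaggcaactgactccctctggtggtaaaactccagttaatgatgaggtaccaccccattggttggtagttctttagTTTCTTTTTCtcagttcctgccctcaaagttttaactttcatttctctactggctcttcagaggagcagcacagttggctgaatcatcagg
The match began 29 bases before the RefSeq start in Trim12c, 36 bases before it in Trim30a and 41 bases before it in Trim30d. In Trim34a and Trim12a it began at base 11 of the RefSeq transcript. The RefSeq starts of Trim12a and Trim12c differ from those of the gene spans given above. On those spans the match lies before the start in both genes. The aligned parts of the Trim12a and Trim12c windows were identical at 247 of 260 bases (95%), and those of Trim30a and Trim30d at 276 of 295 bases (93.6%). The nearby gene Trim5 matched Trim12a at 241 of 241 aligned bases. Between the Trim12 and the Trim30 windows printed, identity was 70.5% to 73.5% of the aligned bases. The window of Gm1966, from the other family, reached 66.7% to 76.9% with the printed windows, over 54 to 186 aligned bases. Identity near 70% of aligned bases therefore does not set related windows apart. The match in Gm1966 began 163 bases before a RefSeq start that lies outside the span the table gives the gene.

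Levels are normalized read counts, which are reads per gene divided by the size factor that the authors gave each library, and they were deposited as whole numbers. Estimated depth, taken from the step that 1 read makes in the low values, was 9230000 to 23600000 reads in the Atm-/- lymphomas, 6360000 to 24700000 in the Rag2c/c p53-/- lymphomas and 6690000 to 39500000 in the WT thymuses. A read was worth up to 3.38 normalized counts in the shallowest library, Rag2c/c p53-/- lymphoma 2, and 3.23 in WT thymus 2. Markers of T cells were present at a mean of at least 10 in every group for 6 of 6 genes, with summed levels of 56618 to 104050, 52306 to 105966 and 61514 to 99921 in the Atm-/-, Rag2c/c p53-/- and WT libraries. The genes did not all follow the sums. Cd2 and Cd3g were below WT in every Rag2c/c p53-/- lymphoma, with means of 39.2% and 54.7% of that of WT. Other cell markers moved with the groups: the summed level of 6 B cell genes was 1576 to 1885 in WT thymus but 199 to 325 in the Atm-/- and 219 to 554 in the Rag2c/c p53-/- lymphomas. That of 6 plasmacytoid dendritic cell genes was 19427 to 24915 in WT, 7551 to 18765 in the Atm-/- and 8585 to 17756 in the Rag2c/c p53-/- lymphomas, but Ccr9, which thymocytes also express, made up 80.4% of it in WT. Without Ccr9 the sums overlapped, at 4095 to 4393, 3358 to 5417 and 3266 to 6734, and the genes did not move together. Siglech, a defining marker of these cells, had a mean of 29.7% of that of WT in the Atm-/- and 9.28% in the Rag2c/c p53-/- lymphomas. In the same order the means were 132% and 130% for Bst2 and 90.2% and 91.7% for Tcf4. For Irf8 they were 57.7% and 170%, and for Spib 93.3% and 31.8%. Thymic epithelial genes summed to 676 to 1063 in WT, 150 to 558 in the Atm-/- lymphomas, where Psmb11 was at 0 in every library, and 267 to 445 in the Rag2c/c p53-/- lymphomas. Ccl25 made up 86.8% of the sum in the Rag2c/c p53-/- lymphomas. Without it the sums were 416 to 767, 18 to 423 and 16 to 85 in WT, Atm-/- and Rag2c/c p53-/-. The sums of myeloid genes, 5 of 6 in the table, ran the other way, at 3242 to 3482 in WT against 6184 to 10325 and 3668 to 7580. Lyz2 made up 51.8% to 57% of these sums. Of the 5 genes, 3 were above WT in every Atm-/- lymphoma, but only Cd68 was in every Rag2c/c p53-/- lymphoma. The summed level of 6 fibroblast and endothelial genes was 185 to 213 in WT against 764 to 9013 and 300 to 1417. Of those 6 the collagen genes Col1a1 and Col3a1 were above WT in every lymphoma. The endothelial genes Cdh5 and Kdr had means of 28.3 and 27.3 in WT. Their means were 17.6 and 9.4 in the Atm-/- and 3.6 and 3.6 in the Rag2c/c p53-/- lymphomas. Emcn, also endothelial, had means of 0.33 in WT, 10.6 in the Atm-/- and 0.6 in the Rag2c/c p53-/- lymphomas. In Atm-/- lymphoma 4 Cdh5, Kdr and Emcn read 60, 30 and 43, against highest WT values of 35, 46 and 1. Erythroid genes overlapped between the groups, with sums of 1109 to 2408 in WT, 934 to 6939 and 838 to 4762. Their part in the differences below was not tested, and in bulk tissue fewer cells of a type and less RNA per cell cannot be told apart.

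Of the targeted genes, Atm read 732, 208, 445, 568 and 534 in the Atm-/- lymphomas and 1990, 1559 and 2274 in WT, a log2 fold change of -2.06 ± 0.42 (SE; adjusted p = 0.0017, limma). Atm was also lower than WT in the Rag2c/c p53-/- lymphomas, at 1248, 439, 1315, 552 and 1154 (log2 fold change -1.16 ± 0.42, adjusted p = 0.044, limma), a call lost when any of 8 of the 13 libraries was left out, and it did not pass the test between the lymphoma groups (-0.90 ± 0.37, adjusted p = 0.14, limma). Trp53 in the Rag2c/c p53-/- lymphomas read 2616, 5461, 2018, 3863 and 3884 against 4387, 6341 and 4498 in WT, which did not pass the test (log2 fold change -0.57 ± 0.29, adjusted p = 0.13, limma). Rag2 was lower than WT in both lymphoma groups, with 260 to 790 in Rag2c/c p53-/- (log2 fold change -3.22 ± 0.71, adjusted p = 0.0036, limma) and 46 to 1025 in Atm-/- (-4.04 ± 0.71, adjusted p = 0.00062, limma) against 4199 to 5409 in WT. Rag1, its partner in the recombinase, was at -2.24 ± 0.43 (adjusted p = 0.0015, limma) and -3.46 ± 0.43 (adjusted p = 5.2e-05, limma). A count over a whole gene does not show which exons are read, so it does not check these alleles.

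The most marked contrast within a pair of copies was that of Trim12a and Trim12c, which sit 23 kb apart and share the same match in their promoters. Trim12a, a tripartite motif gene related to TRIM5, was at 0 in each of the 5 Atm-/- lymphomas. It read 911, 1297, 830, 662 and 568 in the Rag2c/c p53-/- lymphomas and 3122, 3258 and 3256 in WT thymus. The 3 groups did not overlap, and the lowest Rag2c/c p53-/- library still held 568. Against the floor of 3 reads over the group, which is 0.789 normalized counts, Trim12a was at least 4069-fold lower in the Atm-/- lymphomas than in WT and at least 1081-fold lower than in the Rag2c/c p53-/- lymphomas. The Rag2c/c p53-/- mean was 3.76-fold below that of WT. Reads from mice of every strain were mapped to the same reference, GRCm38. Whether strain differences in sequence affected these counts, here or for the other members, was not tested.

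Trim12c, in contrast, was well above 0 in every library. It read 811, 1044, 976, 673 and 910 in the Atm-/- lymphomas, 708, 544, 453, 424 and 384 in the Rag2c/c p53-/- lymphomas and 2397, 2043 and 2282 in WT. Both lymphoma groups lay below WT, by 2.54-fold in the Atm-/- and 4.46-fold in the Rag2c/c p53-/- lymphomas. Between the lymphoma groups the order was the reverse of Trim12a, with means of 883 ± 145 (SD, n = 5) in Atm-/- and 503 ± 129 (SD, n = 5) in Rag2c/c p53-/-, but the ranges overlapped. The range of the Rag2c/c p53-/- lymphomas reached 708, above the lowest Atm-/- value of 673.

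Trim30a, the best known mouse Trim30 gene and a regulator of Toll-like receptor signaling, read 752, 779, 521, 825 and 449 in the Atm-/- lymphomas. It read 241, 263, 163, 141 and 255 in the Rag2c/c p53-/- lymphomas and 2518, 2358 and 2501 in WT. The groups did not overlap in any comparison, and Trim30a alone of the 7 genes had every Atm-/- lymphoma above every Rag2c/c p53-/- lymphoma, with means 3.13-fold apart. The means were 3.70-fold below WT in the Atm-/- and 11.6-fold below WT in the Rag2c/c p53-/- lymphomas.

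Trim30d, its neighbor with a closely similar promoter, was ordered the other way. It read 2, 0, 2, 2 and 3 in the Atm-/- lymphomas, 27, 41, 32, 25 and 29 in the Rag2c/c p53-/- lymphomas and 348, 211 and 380 in WT. The Atm-/- values came to about 8 reads over the 5 libraries. The mean of WT was 174-fold above that of the Atm-/- and 10.2-fold above that of the Rag2c/c p53-/- lymphomas, and the Rag2c/c p53-/- mean was 17.1-fold above that of Atm-/-. The 3 groups did not overlap.

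Trim34a, also of the TRIM5 group, read 54, 21, 31, 26 and 27 in the Atm-/- lymphomas. It read 135, 257, 77, 79 and 111 in the Rag2c/c p53-/- lymphomas and 888, 838 and 850 in WT. The groups again did not overlap, with the order Atm-/-, Rag2c/c p53-/- and WT. WT was 27.0-fold above the Atm-/- mean and 6.51-fold above the Rag2c/c p53-/- mean, and the Rag2c/c p53-/- mean was 4.14-fold above that of Atm-/-. Of the 90-base stretches of the Trim34a transcripts, 24.1% also occur in the copy Trim34b, so part of its reads cannot be placed uniquely.

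Gvin1, the interferon-inducible GTPase gene, was low in all libraries. It was at 0 in the 5 Atm-/- lymphomas, at 2, 0, 3, 1 and 2 in the Rag2c/c p53-/- lymphomas and at 41, 16 and 33 in WT. Both lymphoma groups lay below WT, while the Atm-/- and Rag2c/c p53-/- values overlapped at 0 and all lay at about the level of 1 to 3 reads. It was at least 38.0-fold lower in the Atm-/- lymphomas than in WT, against the same floor. Because 98.0% of its 90-base stretches occur in another gene, 97.0% of them in Gm4070, and only uniquely mapped reads were kept, most of its transcript could not contribute reads.

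Gm1966 shares only 2.25% of its 90-base stretches with other genes, so this limit hardly touches it. It read 0, 0, 0, 0 and 1 in the Atm-/- lymphomas, 31, 7, 23, 9 and 21 in the Rag2c/c p53-/- lymphomas and 938, 750 and 1190 in WT. The 3 groups did not overlap. The ratio of WT to Atm-/- was 3914, with an exact 95% counting interval of 702 to 154626 since it rests on 1 read, and that of Rag2c/c p53-/- to Atm-/- was 80.0, with an interval of 14.0 to 3195. These intervals cover counting error only. The WT mean was 52.7-fold above that of the Rag2c/c p53-/- lymphomas.

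**Figure D1:**
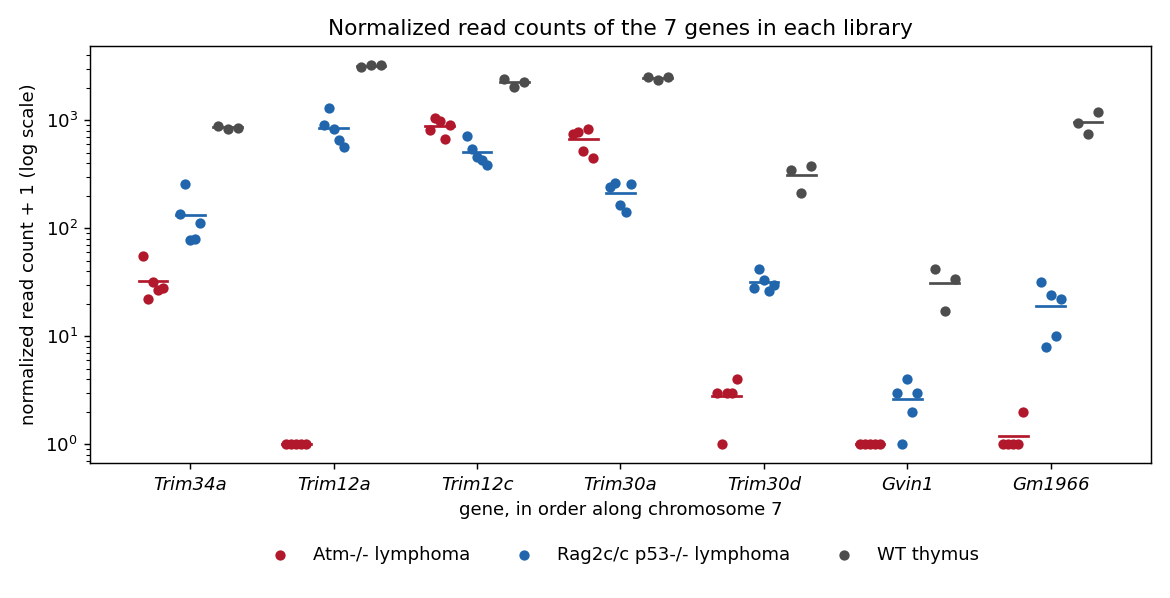
Normalized read counts plus 1, on a log axis, of the 7 genes in each library, in order along chromosome 7. Points are libraries and bars are group means; Trim12a lies at 0 in all 5 Atm-/- lymphomas (drawn at 1), whereas Trim12c and Trim30a read 449 to 1044 there, and the 3 WT thymuses lie highest for every gene.

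In all, 7 of 7 genes had every Atm-/- lymphoma below every WT thymus, and 7 of 7 had every Rag2c/c p53-/- lymphoma below every WT thymus. Such separation was common in the table: it held for 27.9% of the 15872 tested genes in the Atm-/- comparison and for 24.2% in the Rag2c/c p53-/- comparison. When the lymphomas were set against each other, 4 genes (Trim12a, Trim30d, Trim34a and Gm1966) were lower in every Atm-/- lymphoma, 1 (Trim30a) was higher and 2 (Trim12c and Gvin1) overlapped, where 4.48% of all tested genes separated downward and 3.85% upward. Since the genes were chosen on these values, nothing is read from those counts. Of the 7 genes, 6 would pass the filter on low values through the lymphomas alone, and Gvin1 passed only through WT. The median log2 difference over the 7 genes was -4.86 in the Atm-/- lymphomas against WT (-5.25 with the genes at 0 set to their bound), -3.28 in the Rag2c/c p53-/- lymphomas against WT and -1.94 between Atm-/- and Rag2c/c p53-/-. Over all tested genes these medians were -0.019, -0.018 and 0.022. The first 2 comparisons share their WT libraries.

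Per kilobase of annotated exon, the WT levels fell into a high, a middle and a low set. Trim12c (599 ± 48.3 normalized counts per kb, SD, n = 3), Trim30a (598 ± 21.4) and Trim12a (556 ± 13.5) were highest, and the range of Trim12c overlapped those of both others. Trim34a followed at 331 ± 10.1, then Gm1966 at 132 ± 30.3 and Trim30d at 83.3 ± 23.9, and Gvin1 was last at 3.33 ± 1.42. The length of Gvin1 counts all its exons, although 98.0% of its 90-base stretches occur in another gene. Only uniquely mapped reads were kept, so its level per kb is understated and its place in this order is uncertain. In the Rag2c/c p53-/- lymphomas (n = 5) Trim12a (148 ± 48.8 per kb) and Trim12c (134 ± 34.5) overlapped, as did Trim30a (51.7 ± 13.7) and Trim34a (50.8 ± 28.5). In the Atm-/- lymphomas (n = 5) Trim12c (236 ± 38.9 per kb) and Trim30a (162 ± 41.0), whose ranges overlapped, stood above Trim34a at 12.3 ± 4.98, and the rest were below 1 per kb. The exon lengths come from a later GENCODE release than the counts. For Trim34a that release ends the gene at chr7:104262234, whereas the span used in counting ended at chr7:104340693. Its level per kb and its place in the order are therefore uncertain.

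The Rag2c/c p53-/- lymphomas varied among themselves more for some genes than for others. The highest library was 3.34 times the lowest for Trim34a, 4.43 times for Gm1966 and 2.28 times for Trim12a, but 1.64 times for Trim30d, 1.84 times for Trim12c and 1.87 times for Trim30a. Rag2c/c p53-/- lymphoma 2, also the shallowest library, held the highest value of 4 genes (Trim12a, Trim30a, Trim30d and Trim34a) yet the lowest of Gm1966, at 7. The strain background of that group is mixed, and which strain's chromosome 7 region each mouse carried is not given in the labels. As percent of the WT mean, Trim12a ran from 17.7 to 40.4 over these 5 libraries, Trim34a from 8.97 to 29.9 and Gm1966 from 0.73 to 3.23. The Atm-/- lymphomas, all of strain 129S6/SvEv, held Trim12c at 30.0% to 46.6% and Trim30a at 18.3% to 33.6% of WT, with Trim12a, Gvin1, Gm1966 and Trim30d at or under 1%.

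**Figure D2:**
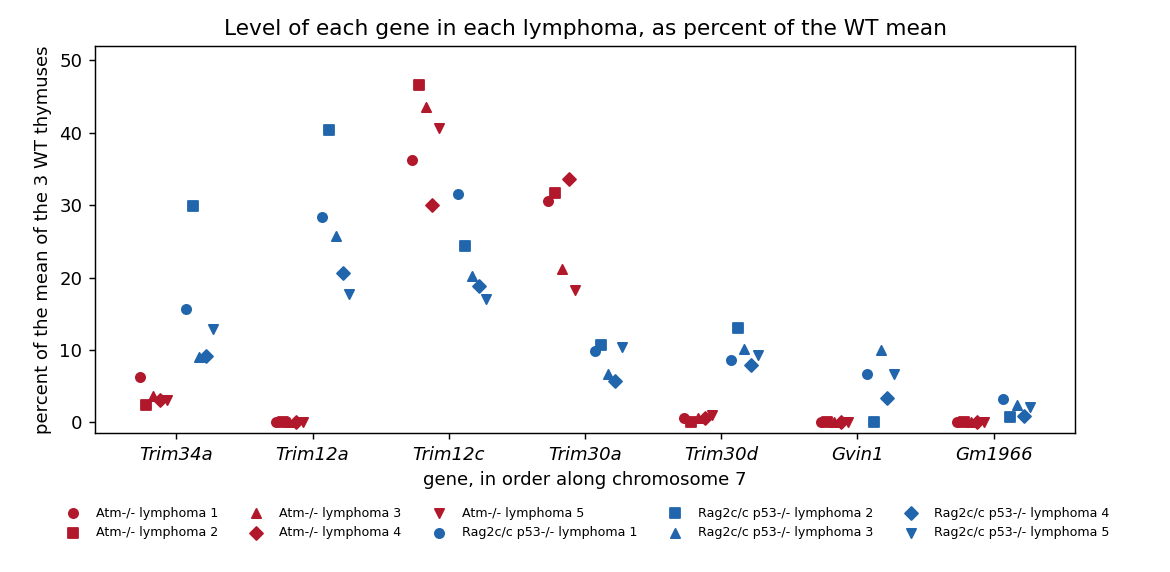
Level of each gene in each lymphoma as percent of the mean of the 3 WT thymuses, with 1 marker shape per library number. Red points (Atm-/-) lie above blue points (Rag2c/c p53-/-) for Trim30a and, with overlap, for Trim12c, and below them for Trim34a, Trim12a, Trim30d and Gm1966; every point lies under 50%.

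Of 22 names of other Trim and Gvin-related genes of these clusters, 11 were in the table and 7 passed the filter on low values, 5 of them (Trim6, Trim30b, Trim30c, Gm4070 and Gm4759) only through WT. All 7 were lower than WT in both lymphoma groups, which for those 5 the filter favored, and Trim30c lost its call in Atm-/- without Atm-/- lymphoma 5 and with a pseudocount of 0.5. Trim5 itself read 1, 2, 2, 6 and 0 in the Atm-/- lymphomas, 23, 257, 69, 28 and 68 in the Rag2c/c p53-/- lymphomas and 573, 526 and 529 in WT. Its pattern was thus that of its neighbor Trim12a and not of Trim12c: it fell by 4.54 ± 0.63 on the log2 scale (SE) between Rag2c/c p53-/- and Atm-/- (adjusted p = 0.00053, limma), and its log2 fold change against WT was -7.69 ± 0.73 in Atm-/- (adjusted p = 7e-06, limma). Its level is uncertain, since 14.5% of its 90-base stretches are shared with other genes, Trim12c the foremost.

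Gm8995 and Gm4759, annotated as unprocessed pseudogenes beside Gm1966, were low in both lymphoma groups. Gm8995 read 65, 59, 56, 53 and 78 in the Atm-/- lymphomas, 77, 68, 128, 56 and 80 in the Rag2c/c p53-/- lymphomas and 3907, 3216 and 4418 in WT. It did not pass the test between the lymphoma groups (log2 fold change -0.35 ± 0.24, SE; adjusted p = 0.40, limma), while its log2 fold change against WT was -5.93 ± 0.28 in Atm-/- (adjusted p = 3.5e-08, limma) and -5.58 ± 0.28 in Rag2c/c p53-/- (adjusted p = 1.2e-07, limma). Gm4759 read 2 to 8, 0 to 3 and 227 to 646 in the same order of groups, and its log2 fold change between the lymphoma groups was 0.90 ± 0.50 (adjusted p = 0.28, limma). Trim6, Trim30b, Trim30c and Gm4070 read 0 to 10 in the lymphomas and 10 to 40 in WT, and none of the 4 passed the test between the lymphoma groups (adjusted p from 0.58 to 0.98, limma). Trim34b read 4 to 14, 0 to 3 and 6 to 9 and was not tested. Gm8979, Gm8989 and Trim30e-ps1 were at or near 0 throughout.

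The question then was whether the genes around the clusters moved with them. A gene was called when the Benjamini-Hochberg adjusted p of limma was under 0.05, the log2 fold change at least 1 either way and the mean at least 10 in 1 of the groups compared. Against WT, 17.0% of all tested genes were called lower and 12.6% higher in the Atm-/- lymphomas, and 13.9% lower and 9.77% higher in the Rag2c/c p53-/- lymphomas. In the direct comparison 4.33% were called lower and 3.51% higher in Atm-/-. Of 212 annotated genes within 1 Mb of a member, 27 passed the filter, and 20 of these belong to neither family. Of those 20, E030002O03Rik passed only through WT, where it was highest, so that the filter favored a lower call. Among the 20, 5 were called lower and 2 higher in the Atm-/- lymphomas against WT, 3 lower in the Rag2c/c p53-/- lymphomas against WT, and 3 lower and 1 higher between Atm-/- and Rag2c/c p53-/-. With the 7 family genes, the calls were 12 lower and 2 higher, 10 lower, and 4 lower and 1 higher. No neighbor was called higher in the Rag2c/c p53-/- lymphomas against WT, where 2 were higher at an unadjusted limma p under 0.05. Without WT thymus 1, 2 or 3, 22 neighbors were left to test, and 9, 8 and 9 were called against WT in Atm-/- and 4, 4 and 5 in Rag2c/c p53-/-.

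Gm5900, 1 of 2 neighbors called higher in the Atm-/- lymphomas against WT, was the only neighbor called higher in Atm-/- than in Rag2c/c p53-/-. It read 164, 406, 191, 222 and 169 in the Atm-/- lymphomas, 20, 47, 15, 19 and 29 in the Rag2c/c p53-/- lymphomas and 19, 42 and 30 in WT, a log2 fold change of 3.12 ± 0.38 between the lymphoma groups (adjusted p = 0.00017, limma). Every Atm-/- lymphoma was above every other library. Apbb1, which encodes an adaptor that binds the amyloid precursor protein, read 4, 5, 17, 11 and 4 in the Atm-/- lymphomas, 63, 30, 134, 110 and 138 in the Rag2c/c p53-/- lymphomas and 49, 58 and 68 in WT, so that it fell by 3.39 ± 0.50 on the log2 scale between Rag2c/c p53-/- and Atm-/- (adjusted p = 0.00074, limma). Fam160a2 fell by 1.5 ± 0.39 (adjusted p = 0.026, limma) and Dchs1, a protocadherin gene, fell by 1.69 ± 0.43 (adjusted p = 0.023, limma) in the same comparison. Against WT, Fam160a2 fell by 2.26 ± 0.45 in the Atm-/- lymphomas (adjusted p = 0.0015, limma), and Prkcdbp, which encodes a caveolar protein, rose by 2.68 ± 0.79 (adjusted p = 0.015, limma). In the Rag2c/c p53-/- lymphomas Ppfibp2 fell by 2.12 ± 0.34 (adjusted p = 0.00048, limma), E030002O03Rik fell by 2.38 ± 0.81 (adjusted p = 0.032, limma) and Timm10b, a mitochondrial import gene, fell by 1.01 ± 0.25 (adjusted p = 0.007, limma). Their means there were 23.5%, 22% and 49.4% of that of WT. In the Atm-/- lymphomas the means were 15.9%, 7.32% and 78.2%, so the falls of Ppfibp2 and E030002O03Rik were not particular to Rag2c/c p53-/-. Leaving out 1 library ended the calls between the lymphoma groups of Dchs1 (Atm-/- lymphoma 1 or Rag2c/c p53-/- lymphoma 1) and Fam160a2 (Atm-/- lymphoma 4 or Rag2c/c p53-/- lymphoma 3 or 5). Both were also lost with only the 2 lymphoma groups in the fit. Against WT, leaving out 1 library ended those of Prkcdbp (WT thymus 2), E030002O03Rik (Rag2c/c p53-/- lymphoma 4 or 5) and Timm10b (Rag2c/c p53-/- lymphoma 1 or 3 or WT thymus 1 or 2). E030002O03Rik was also lost with a pseudocount of 0.5 and Timm10b with one of 4.

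Of the well expressed genes between the clusters, 3 that differed little are given as examples, chosen after their values were seen. Ilk, the integrin-linked kinase gene, had group means of 3188, 3038 and 3403 in the Atm-/-, Rag2c/c p53-/- and WT libraries. Tpp1, a lysosomal peptidase gene, had means of 2178, 2059 and 2578. For Arfip2 the means were 1002, 975 and 1065, and none of the 3 genes passed the test in any comparison (adjusted p from 0.077 to 0.85, limma).

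**Figure D3:**
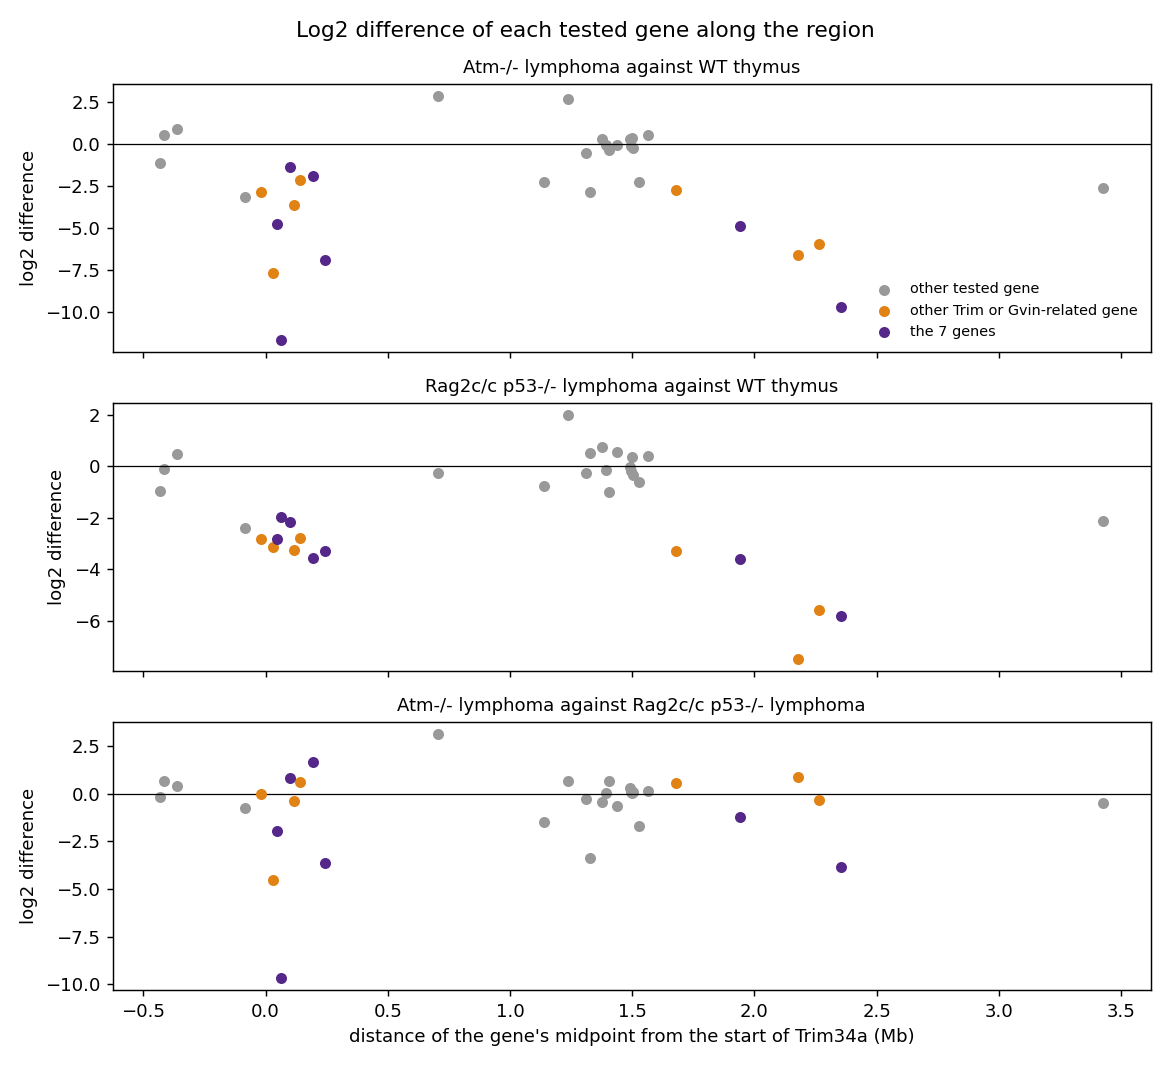
Log2 difference of each tested gene in the 3 comparisons against the distance of its midpoint from the start of Trim34a, in Mb, for members (purple), other Trim or Gvin-related genes (orange) and the remaining genes (grey). Both clusters lie below 0 against WT, down to -11.6 for Trim12a, while the genes between them lie between -2.88 and 2.87, and in the last panel members lie on both sides of 0.

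Most interferon-stimulated genes outside the clusters were lower than WT in both lymphoma groups. Of 34 tested, 23 were called lower in the Atm-/- and 26 in the Rag2c/c p53-/- lymphomas, with medians of -2.03 and -2.06 on the log2 scale. None was called higher by limma in either comparison, nor was any higher at an unadjusted p under 0.05. Of those not called, Mx2, Mx1 and Usp18, chosen after their values were seen, had means above WT in a lymphoma group, with a wide spread. Mx2 read 87 to 1596 in the Atm-/- and 41 to 1525 in the Rag2c/c p53-/- lymphomas against 110 to 174 in WT. In the same order Mx1 read 82 to 633 and 44 to 896 against 162 to 242. Usp18 read 55 to 1421 and 373 to 1489 against 591 to 624. Oas2, which makes the activator of RNase L, had a log2 fold change of -4.83 ± 0.63 in Atm-/- (adjusted p = 7.4e-05, limma) and of -4.03 ± 0.63 in Rag2c/c p53-/- (adjusted p = 0.00039, limma). In Atm-/- the lowest were Oas2, Oasl2 at -4.56 ± 0.54 (adjusted p = 3.5e-05, limma) and Ifit1, a sensor of foreign RNA ends, at -4.42 ± 0.58 (adjusted p = 8.1e-05, limma), and the called genes nearest 0 were Isg20 at -1.34, Dtx3l at -1.23 and Herc6 at -1.06. In Rag2c/c p53-/- they were Samd9l at -5.10 ± 0.47 (adjusted p = 1.1e-05, limma), Ifi27l2a at -4.16 ± 0.55 (adjusted p = 0.00012, limma) and Oas2, and those nearest 0 were Ifi35 and Ddx58, each at -1.24, and Zbp1 at -1.22. Irf7, the transcription factor that amplifies interferon production, was at -3.08 ± 0.28 in Atm-/- (adjusted p = 4.4e-06, limma) and -2.62 ± 0.28 in Rag2c/c p53-/- (adjusted p = 2.6e-05, limma). Isg15, a ubiquitin-like modifier, was at -2.28 ± 0.57 (adjusted p = 0.006, limma) and -2.63 ± 0.57 (adjusted p = 0.0032, limma). Leaving out 1 library ended the calls of Herc6 (Atm-/- lymphoma 2 or 3) and Isg20 (Atm-/- lymphoma 5 or any WT thymus) in Atm-/- and, for 9 of the 13 libraries, of Zbp1 in Rag2c/c p53-/-, which was also lost without the filter on low values.

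Between the lymphoma groups these genes were called about as often as all tested genes, at 8.82% against 7.84%. Of the 34, 1 was called lower and 2 higher in Atm-/-, with a median of 0.09 on the log2 scale. Samd9l, an interferon-induced growth suppressor gene, read 1292, 589, 768, 842 and 812 in the Atm-/- and 170, 44, 150, 43 and 181 in the Rag2c/c p53-/- lymphomas, a log2 fold change of 3.08 ± 0.40 (adjusted p = 0.00033, limma). Xaf1, a pro-apoptotic gene, was higher by 1.33 ± 0.31 (adjusted p = 0.014, limma). Rsad2, which encodes viperin, fell by 1.34 ± 0.40 on the log2 scale between Rag2c/c p53-/- and Atm-/- (adjusted p = 0.045, limma), a call lost with only the 2 lymphoma groups in the fit, without the filter on low values, and when any of 12 of the 13 libraries was left out. Irf7 (-0.46 ± 0.24, adjusted p = 0.25, limma) and Isg15 (0.35 ± 0.49, adjusted p = 0.71, limma) did not pass. Without Atm-/- lymphoma 3, 6 of the 34 were called.

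The interferon-inducible GTPases, which act with Gvin1 in defense against intracellular microbes, gave a similar picture against WT. Of 14 tested, 12 were called lower in the Atm-/- and 14 in the Rag2c/c p53-/- lymphomas, where 17.0% and 13.9% of all tested genes were. None was called higher by limma or was higher at an unadjusted p under 0.05. The 2 not called in Atm-/- were Gbp3 and Gbp5, with means of 130% and 68.5% of that of WT. Tgtp1, which passed the filter only through WT, was at -6.01 ± 0.81 in Atm-/- (adjusted p = 9.2e-05, limma) and -5.62 ± 0.81 in Rag2c/c p53-/- (adjusted p = 0.00023, limma), followed by Tgtp2 at -3.77 and -3.85. Gbp6 was at -3.58 ± 0.50 in Atm-/- (adjusted p = 0.00012, limma), while Gbp7, Irgm1 and Ifi47 were the called genes nearest 0 at -1.30, -1.12 and -1.02, the last lost without Atm-/- lymphoma 4. In Rag2c/c p53-/- those nearest 0 were Gbp4 at -1.77, Ifi47 at -1.71 and Gbp3 at -1.53.

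When the lymphomas were compared, 4 of the 14 GTPases were called higher in Atm-/-, which is the direction of Trim30a and the opposite of Trim12a, Trim30d, Trim34a and Gm1966. None was called lower by limma, and 1 was lower at an unadjusted p under 0.05. All 4 are guanylate binding proteins. Gbp5 read 148, 274, 231, 216 and 127 in the Atm-/- lymphomas, 25, 17, 21, 53 and 15 in the Rag2c/c p53-/- lymphomas and 300, 244 and 329 in WT, a log2 fold change of 2.97 ± 0.35 between the lymphoma groups (adjusted p = 0.00013, limma). For Gbp7 it was 2.06 ± 0.21 (adjusted p = 4e-05, limma), for Gbp3 1.90 ± 0.29 (adjusted p = 0.001, limma) and for Gbp2 1.07 ± 0.25 (adjusted p = 0.016, limma). Gbp2 lost its call with only the 2 lymphoma groups in the fit and without Atm-/- lymphoma 2.

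Of 14 genes of interferon signaling, 6 were called lower in the Atm-/- and 5 in the Rag2c/c p53-/- lymphomas against WT. In Atm-/- these included Irf9 at -2.60 ± 0.24 (adjusted p = 6.2e-06, limma), Jak2 at -1.67, Ifngr1 at -1.5, Tyk2 at -1.26 and Stat2 at -1.18. In Rag2c/c p53-/- they included Irf9 at -1.77 ± 0.24 (adjusted p = 0.00017, limma), Jak2 at -1.72, Tyk2 at -1.23 and the receptor gene Ifnar1 at -1.01, with the call of Ifnar1 lost without Rag2c/c p53-/- lymphoma 1, 2 or 4 or WT thymus 3. Higher calls numbered 0 in both, with 1 gene in Atm-/- and 0 genes in Rag2c/c p53-/- higher at an unadjusted limma p under 0.05. Between the lymphoma groups only Ifngr1, a subunit of the interferon gamma receptor, was called among the 14, at -2.0 ± 0.27 (adjusted p = 0.00038, limma), with means of 2312 in Atm-/- and 9606 in Rag2c/c p53-/-. That is 7.14% of this list, against 7.84% of all tested genes.

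**Figure D4:**
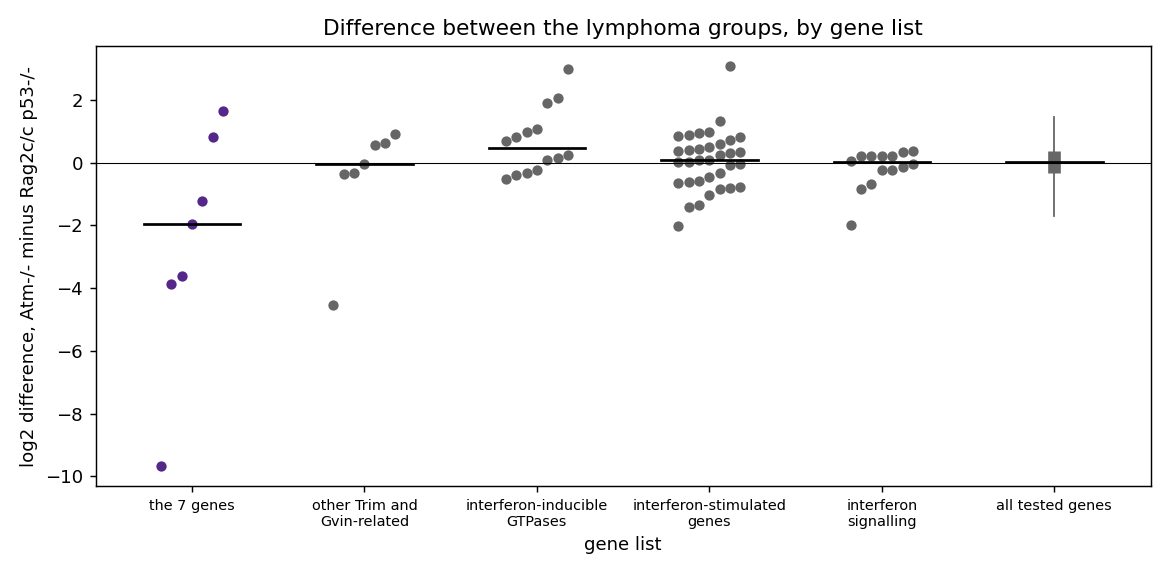
Log2 difference of Atm-/- minus Rag2c/c p53-/- lymphomas for each tested gene of 5 lists (points, with the list median as a bar) and for all tested genes (bar at the median, box over the 25th to 75th percentile and line over the 5th to 95th percentile). The 7 members run from -9.68 for Trim12a to 1.64 for Trim30a, while 95% of all tested genes lie below 1.5 and 95% above -1.7.

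The genes most like each member over the 13 libraries were found by Pearson's r of log2(normalized count + 1). The libraries fall into 3 groups, so r covers differences between groups as well as within them, and it is given without a p. Trim12a was most like Gm10524 (r = 0.986), Zfp125 (0.980) and Gm12454 (0.980), of which Zfp125 and Gm12454 had means under 1 in the Atm-/- lymphomas and of 64.0 and 65.6 in the Rag2c/c p53-/- lymphomas. Trim12c was most like BC030336 (0.974), the GTPase gene Irgm1 (0.966) and Igj (0.959), the last of which encodes the immunoglobulin joining chain. Trim30a was most like Zfp874b (0.976), Ctso (0.967) and BC094916 (0.962). Trim30d was most like Gm26637 (0.978), Gm4955 (0.970) and Gm17180 (0.967). Trim34a was most like Vipr1 (0.982), Slc6a19os (0.980) and Mst1 (0.977). Gvin1 was most like 6330403K07Rik (0.994), Tbata (0.984) and Fgf14 (0.983), and Gm1966 like Ankrd50 (0.989), Aste1 (0.987) and Kbtbd2 (0.982). BC030336 was the only one of the 21 on chromosome 7.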

How the data were processed

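Polyadenylated RNA of 13 libraries was sequenced from stranded libraries. Per the labels and the study's methods, the authors mapped reads with STAR 2.4.0g1 to GRCm38, removed duplicates with Picard, kept uniquely mapped reads, counted them per Ensembl release 78 gene with HTSeq-count and scaled them with DESeq2 1.6.3. The methods describe the WT libraries and were taken to hold for the lymphomas. The deposited values are such normalized counts rounded to whole numbers, here held as a score and not as raw counts, so no count model was run. The authors' fold changes, p-values and means in the same table were not used. Samples were grouped by the labelled genotype, 5, 5 and 3 libraries, and every library column was used.

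Values were analysed as log2(normalized count + 1) with limma 3.58.1 (empirical Bayes with trend and robust settings) in 1 fit of all 3 groups. The filter on low values asked for 10 or more in 3 libraries, which left 15872 genes. Fold changes on this scale understate the change of low genes. On simulated data for Atm-/- against WT with 15030 genes, 200 of 200 changed genes were recovered with 4 false calls. The simulated libraries had equal depth and a fixed spread, and only changes larger than the fold threshold were drawn. The result therefore checks that the method runs and does not give its error rates on these libraries. Each library's depth was estimated from the steps of its low values, and the floor for a group at 0 was 3 reads. Replicates are separate mice for the lymphomas and separate samples for WT.

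The members and all gene lists were chosen with earlier results of these data known. Besides the members, the text names all Trim and Gvin-related and targeted genes, the called neighbors (over 8, the 4 highest and 4 lowest fold changes), the 3 highest and 3 lowest called genes of each interferon list with Irf7 and Isg15, and the 3 genes most like each member. An item that this rule also names is not reported here. Promoters came from RefSeq and were aligned with Biopython 1.88. Shared 90-base stretches were counted over GENCODE vM21 transcripts. The alternatives tried were recomputed size factors, pseudocounts of 0.5 and 4, no filter, no fold threshold, only 2 groups in the fit, windows of 0.5 and 2 Mb and leaving out each library.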

Additional observations from a re-analysis of the deposited data

Results flagged for a closer look

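In 4 of the 36 pairs of a gene and a lymphoma group that were looked at, a library stood apart from the other 4 of its group. The rule flags about 1 in 20 by chance, but only for continuous values. Pairs with all values equal could not be flagged, and a lone value of 1 among values of 0 always is. The number flagged therefore cannot be set against that rate. Trim5 read 257 in Rag2c/c p53-/- lymphoma 2, the shallowest library, against 23 to 69 in the others of the group. Trim34b read 14 in Atm-/- lymphoma 2 against 4 to 6. Gm1966 read 1 in Atm-/- lymphoma 5 and 0 in the others, and Gm8979 read 1 in Rag2c/c p53-/- lymphoma 3 and 0 in the others, each of which is about 1 read.

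The effect against WT differed between the lymphoma groups, by limma's test of Atm-/- against Rag2c/c p53-/-, for 14 named genes outside the members. The log2 fold change was negative for Trim5 (-4.54), Apbb1 (-3.39), Ifngr1 (-2.0), Dchs1 (-1.69), Fam160a2 (-1.5) and Rsad2 (-1.34). It was positive for Gm5900 (3.12), Samd9l (3.08), Gbp5 (2.97), Gbp7 (2.06), Gbp3 (1.90), Trp53 (1.38), Xaf1 (1.33) and Gbp2 (1.07). Trp53 is itself the gene targeted in the Rag2c/c p53-/- mice. Adjusted p ran from 4e-05 for Gbp7 to 0.045 for Rsad2.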

How the results depend on the processing

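No member's log2 difference changed sign under another scaling, a pseudocount of 0.5 or 4, or without any library of the comparison (245 values, of which 12 moved by more than the replicate SD, all 12 with the pseudocount). The pseudocount decided the size of differences that rest on values at or near 0: the median over the members in Atm-/- against WT was -5.83 with 0.5 and -4.65 with 4, and that in Rag2c/c p53-/- against WT was -2.81 with 4. Leaving out 1 library moved these medians between -5.24 and -4.76, between -3.54 and -3.12, and, in Atm-/- against Rag2c/c p53-/-, between -2.15 and -1.66. Over the same settings, calls against WT in Atm-/- numbered 3401 to 4902 of all genes, 8 to 15 of the neighbors, 22 to 24 of the interferon-stimulated genes and 11 to 12 of the GTPases. In Rag2c/c p53-/- they numbered 2505 to 3956, 4 to 11, 22 to 27 and 14. Between the lymphoma groups they numbered 934 to 1315, 4 to 5, 2 to 6 and 3 to 5. The low neighbor counts came without a WT library, when 5 fewer neighbors passed the filter. Without the fold threshold, 5884 genes were called in Rag2c/c p53-/- against WT and 5 interferon-stimulated genes between the lymphoma groups. Between those groups 3 neighbors were called with only the 2 groups in the fit, and 3 with a window of 0.5 Mb. No call of a named gene reversed. No paired analysis was possible because the labels give the groups no shared replicate numbers. Values below about 3 normalized counts rest on 1 to a few reads, and 3 WT libraries limit every comparison with WT.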
